A study of Mus musculus with 14 samples.

Results

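The collagens are the genes whose symbol reads Col, a number, a and a number. Of 56691 gene IDs in the deposited count table, 44 had such a symbol, and all 44 passed the filter on low counts. They were sorted by the structure that their chains build into 11 fibrillar, 17 network, 9 FACIT (fibril-associated), 4 transmembrane and 3 other collagens (2 multiplexins and Col26a1). A set of 8 cartilage collagens crosses these classes. The study compared whole paws of newborn mice with genotype Krt9-/-, called Krt9 null here, with those of wild-type (WT) mice. Paws were taken on postnatal day 0 (P0) and day 3 (P3). Krt9 encodes the keratin of the upper layers of palm and sole epidermis. The groups held 4 P0 WT, 2 P0 Krt9 null, 5 P3 WT and 3 P3 Krt9 null libraries of ribosomal RNA-depleted total RNA. No treatment is given, and the sources used here give neither the strain nor how the null allele was made. Litter and sex were labelled, but nothing says whether 1 library is 1 animal, so p-values measure the spread between these libraries.

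Collagen chains are assembled into helices inside the cell, and after secretion most are trimmed and cross-linked in the matrix. Fibrillar collagens form the cables of dermis, tendon and bone. Network collagens form the sheets of basement membranes, the beaded filaments around cells and the anchoring fibrils under the epidermis. A whole newborn paw holds all of these tissues together with growing cartilage. In such bulk samples, fewer cells of a type and less RNA per cell cannot be told apart.

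Library totals ran from 28947715 to 41004173 counts, and levels are given as CPM, counts scaled to a common library size after TMM normalisation, always in the order of the replicate numbers. Krt9 itself was at 2.09 to 7.61 CPM in P0 WT, 5.32 and 6.09 in P0 Krt9 null, 32.9 to 83.0 in P3 WT and 7.74 to 25.2 CPM in P3 Krt9 null libraries, so the P0 groups overlapped and the P3 groups did not. Krt19, another keratin gene, was at 48.9 to 209 CPM in the 5 Krt9 null and 0.865 to 1.95 CPM in the 9 WT libraries. Library 4 of P0 WT, labelled female, held 0.181 CPM of Xist and 0.155 CPM of Ddx3y, where the other libraries labelled female held at least 783 CPM of Xist. The columns of the deposited table form 2 alphabetical runs, called column block A (8 libraries) and B (6 libraries) here. Block B holds P0 WT 4, P0 Krt9 null 2, P3 WT 1 and 5, and P3 Krt9 null 1 and 3. No source calls these runs a batch. In edgeR's quasi-likelihood fit with the block as a term, 28 of 44 collagens were lower in block B and 0 higher, where 23.2% of all 21619 genes tested were called, 9.68% higher and 13.5% lower. The median log2 difference B minus A was -0.59 over the collagens and 0.02 over all genes. The block is spread over all 4 groups, and results are given with it and without it.

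Collagens took 3.19% to 10.03% of all counts, 6.62% to 10.03% in block A and 3.19% to 5.78% in block B. The genes of types I and III, the main fibrils of skin and bone, made up 68.3% to 80.3% of the collagen counts. Per kilobase of exon, Col1a1 had the highest mean level, 3288 CPM per kb, followed by Col1a2 (1416) and Col3a1 (1079.8 CPM per kb). These 3 genes held 41.7%, 18.0% and 13.7% of the summed collagen level per kb. Next came Col6a1 (371 CPM per kb), a chain of the beaded filaments, and Col5a1 (193 CPM per kb), whose collagen starts new fibrils. Outside the fibrillar and network classes the highest means were those of the FACIT Col14a1 (98.0 CPM per kb) and the hemidesmosome collagen Col17a1 (71.3 CPM per kb). The lowest was Col4a3, a chain of the kidney and lung basement membranes, at 0.0378 CPM per kb.

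**Figure D1:**
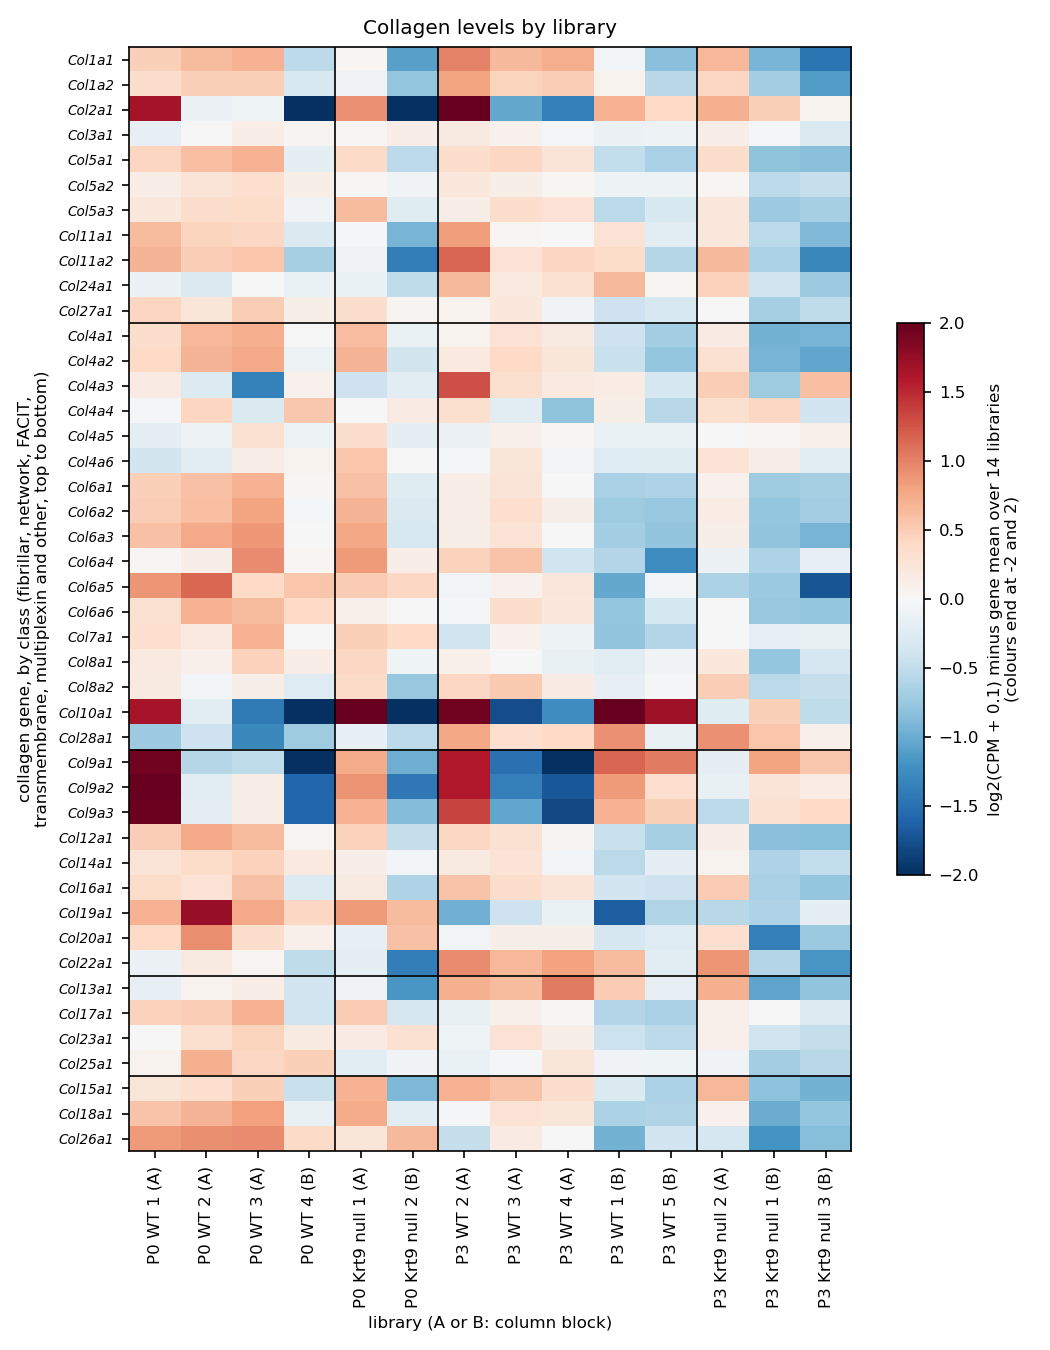
Levels of the 44 collagens (rows, by class) in the 14 libraries (columns, by group, with column block A or B in brackets), as log2(CPM + 0.1) minus each gene's mean over the 14 libraries. Most rows are lower in the block B columns of each group, and Col2a1, Col10a1 and the type IX genes vary widely within P0 WT and P3 WT.

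The first comparison asked how collagen genes differ between P0 and P3 in WT paws. In edgeR's quasi-likelihood fit of the 4 groups and sex, with adjustment over all 21619 genes tested, 3 collagens were lower on P3 and 1 was higher. That is 9.09% of the 44, where 16.6% of all genes were called, 8.07% lower and 8.49% higher. The 4 were the FACIT Col19a1, Col26a1 and the anchoring fibril gene Col7a1, which fell, and Col28a1, which rose. With the column block as a term, 17 collagens were lower and 2 higher, where 25.8% of all genes were called, 13.2% lower and 12.6% higher. All 4 were among those 19. An unadjusted p under 0.05 was found for 12 collagens (27.3%) without the block term and 23 (52.3%) with it. The shares of all genes were 30.7% and 37.7%. Without P0 WT 4, which holds all of block B on P0 in WT, the fit with the block term called 15 (32% of all genes), and the fit without that term called 5 (19.4% of all genes). The median log2 fold change of the 44 was -0.27 without the block term and -0.25 with it, beside -0.01 and -0.02 over all genes. Within block A alone 32 of 44 collagens had a mean log2(CPM + 0.1) that was lower on P3 in WT paws, and within block B alone 30 of 44 did.

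Col7a1 encodes the anchoring fibril collagen, which ties the epidermal basement membrane to the dermis. It was at 178, 161, 227 and 141 CPM in the P0 WT libraries and at 81.3, 107, 148, 131 and 93.5 CPM in the P3 WT libraries. Only library 3 of P3 exceeded a P0 library, the fourth, and within each column block the days did not overlap. Its log2 fold change was -0.66 (SE 0.17, adjusted p = 0.018). Without P0 WT library 1 or 3 in turn Col7a1 was not called, at -0.65 and -0.50.

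Col19a1, a FACIT gene known from a human rhabdomyosarcoma line, was at 2.80, 5.90, 2.93 and 2.28 CPM on P0 and at 0.468, 0.818, 1.24, 1.53 and 1.08 CPM on P3 in WT paws. All P0 libraries lay above all P3 libraries, and P0 library 2 was the highest. Col19a1 is a low gene here, with a mean of 2.035 CPM over the 14 libraries. Its log2 fold change was -1.72 (SE 0.33, adjusted p = 0.0041), which makes it the collagen with the largest fall in WT paws in this fit. Skeletal muscle markers also moved between these days. All 8 were below 0, 6 of 8 were lower past the test, and their summed level was 4116 to 12158 CPM on P0 and 1762 to 3276 CPM on P3. The part of muscle in the fall of Col19a1 was not tested.

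Col26a1, known from mouse testis and ovary, was at 50.2, 53.3, 54.0 and 36.6 CPM on P0 and at 14.4, 20.0, 31.3, 28.2 and 21.3 CPM on P3 in WT paws. The days did not overlap, and the lowest P0 library was the one of block B. Its log2 fold change was -1.07 (SE 0.22, adjusted p = 0.0062).

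Col28a1, whose protein surrounds Schwann cells in mouse nerves, was at 4.39, 5.45, 2.93 and 4.40 CPM on P0 and at 13.8, 12.5, 9.23, 9.60 and 6.55 CPM on P3 in WT paws. Every P3 library was above every P0 library. Its log2 fold change was 1.24 (SE 0.25, adjusted p = 0.006). Of 6 Schwann cell markers 2 rose, among them the myelin gene Mbp at 0.91 (SE 0.23, adjusted p = 0.019), and none fell. Their summed level was 129 to 181 CPM on P0 and 216 to 405 CPM on P3, and their part in the rise of Col28a1 was not tested. With block B alone, where 1 P0 WT library faces 2, Col19a1, Col26a1 and Col28a1 were not called, at -1.55, -1.03 and 1.21.

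**Figure D2:**
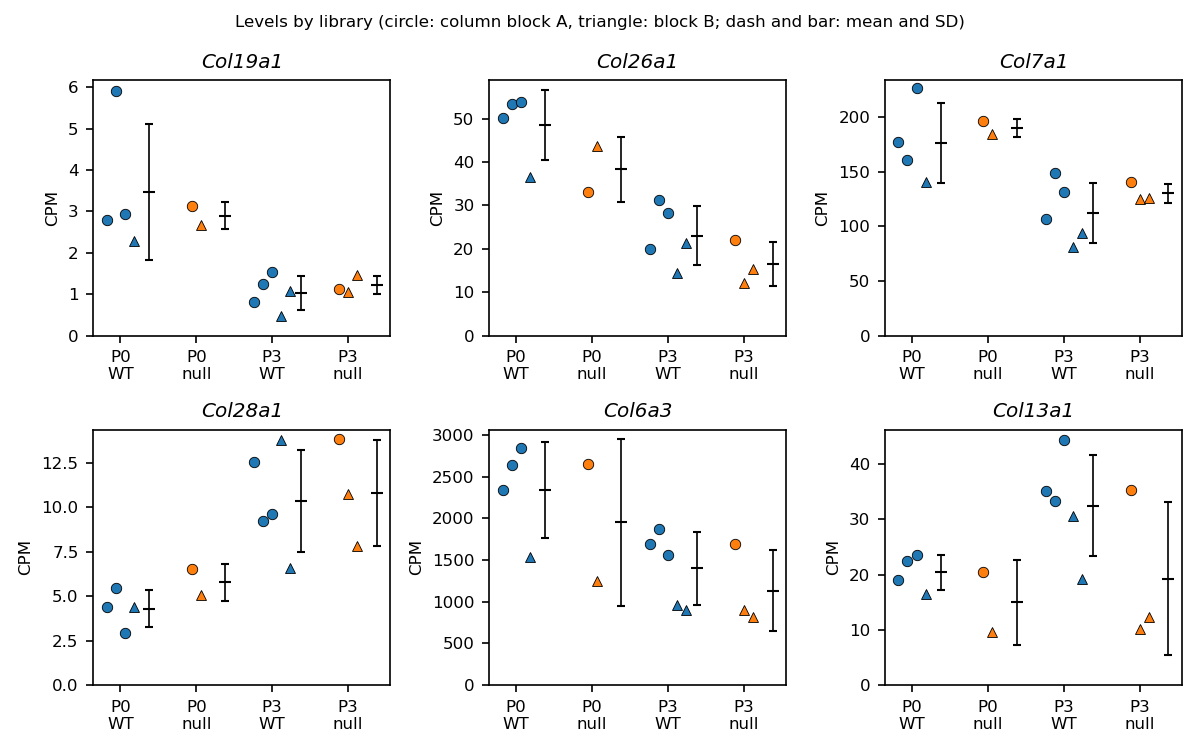
CPM (y axis, from 0) of 6 collagens in every library by group, with circles for column block A, triangles for block B, and the mean and SD beside each group. Col19a1 and Col26a1 of WT paws lie lower on P3 than on P0 without overlap, Col28a1 lies higher, and Col6a3 separates by block within each group.

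The promoter windows of the following 5 genes are shown for the collagens that the day comparison turns on, next to 2 whose level was steadiest and most variable. They are the 150 bases before the RefSeq start on build GRCm38.p6, 5′ to 3′, with matches to the TATA box letters TATAAA, the CCAAT box letters CCAAT or the GC box letters GGGCGG on either strand in capitals. The windows are those of Col7a1 at chr9:108953436-108953585 on the plus strand, Col28a1 at chr6:8192618-8192767 on the minus strand, the type VI gene Col6a3 at chr1:90843972-90844121 on the minus strand, Col3a1 at chr1:45311388-45311537 on the plus strand and Col10a1 at chr10:34389831-34389980 on the plus strand.
Col7a1: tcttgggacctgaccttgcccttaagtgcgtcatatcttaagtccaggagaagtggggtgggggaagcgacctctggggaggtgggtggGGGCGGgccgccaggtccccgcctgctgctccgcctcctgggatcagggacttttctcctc
Col28a1: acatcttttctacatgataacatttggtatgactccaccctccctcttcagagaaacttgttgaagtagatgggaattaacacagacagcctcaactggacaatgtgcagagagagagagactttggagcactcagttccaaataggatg
Col6a3: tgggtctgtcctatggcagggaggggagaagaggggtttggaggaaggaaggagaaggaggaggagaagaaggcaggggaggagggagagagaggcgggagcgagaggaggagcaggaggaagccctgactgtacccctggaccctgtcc
Col3a1: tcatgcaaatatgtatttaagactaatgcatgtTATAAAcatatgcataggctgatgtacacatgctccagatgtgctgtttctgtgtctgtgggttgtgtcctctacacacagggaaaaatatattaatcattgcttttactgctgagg
Col10a1: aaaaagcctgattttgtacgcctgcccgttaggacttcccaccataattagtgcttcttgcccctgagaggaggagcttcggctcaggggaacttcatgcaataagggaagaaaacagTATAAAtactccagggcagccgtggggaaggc
Of the 44 collagens 35 matched a window by symbol. TATAAA was in the window of 4 of these 35 (11.4%), Col3a1, Col10a1, Col11a2 and Col17a1, and in 7.57% of all 32851 windows. CCAAT was in the windows of 8 (22.9%), beside 24.5% of all windows. GGGCGG was in the windows of 19 (54.3%), Col7a1 among them, beside 28.6% of all windows. Where a collagen had several windows (Col6a2, Col9a1 and Col18a1), a match in any of them counted, while the shares of all windows count each window. A match describes letters, not a used site. Col3a1 and Col10a1 both hold TATAAA, and their levels ranged from 8654 to 11903 CPM and from 5.996 to 392 CPM over the 14 libraries.

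Among the fibrillar collagens 0 of 11 passed edgeR's test for day in WT paws, and their median log2 fold change was -0.01. Of the 11, 2 had an unadjusted p under 0.05, beside 30.7% of all genes. The genes of type I, the main collagen of bone and skin, spread widely by column block. Col1a1 was at 26445, 29213, 30600.0 and 13199 CPM on P0 and at 18207, 37493, 29706, 31365 and 10557 CPM on P3 in WT paws, and Col1a2 at 20836, 22856, 22895 and 13203 and at 17187, 28225, 22247, 22973 and 11148 CPM. On both days the block B libraries were the lowest, and the days overlapped. The log2 fold changes were 0.00 (SE 0.48, adjusted p = 1) and 0.00 (SE 0.32, adjusted p = 1).

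Col3a1, the collagen of stretchable tissues, was at 9455, 10508, 11532 and 11024 CPM on P0 and 9741, 11903, 11159, 10292 and 9859.9 CPM on P3. Its log2 fold change was -0.01 (SE 0.13, adjusted p = 0.98). With the block term Col5a1, which starts fibrils, fell at -0.27 (SE 0.09, adjusted p = 0.037), and Col27a1, a cartilage fibril gene, fell at -0.36 (SE 0.09, adjusted p = 0.0069). The other 9 fibrillar genes did not pass in either fit.

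Network collagens held both directions. Without the block term 1 of 17 was lower (Col7a1) and 1 higher (Col28a1), and with it 8 were lower and 1 higher. The 6 beaded filament genes of type VI lay below 0 in both fits, with a median of -0.61 without and -0.51 with the block term. None of the 6 passed without the block term, and 5 of 6 passed with it, all but the low gene Col6a4. Without it 4 of 6 had an unadjusted p under 0.05, beside 30.7% of all genes. Col6a3 was at 2339.9, 2641, 2841 and 1538 CPM on P0 and at 966, 1692, 1879, 1567 and 903 CPM on P3 in WT paws. Col6a1 was at 2145, 2297, 2483 and 1568 and at 984, 1691, 1845, 1553 and 1000.2 CPM. Within each block every P0 library was above every P3 library for both genes, and across blocks the days overlapped. The log2 fold change with the block term was -0.64 (SE 0.09, adjusted p = 0.00023) for Col6a3 and -0.51 (SE 0.08, adjusted p = 0.00067) for Col6a1. Without it the values were -0.77 (SE 0.30, adjusted p = 0.099) and -0.61 (SE 0.24, adjusted p = 0.1). Col6a2, the third chain of the common type VI molecule, was at -0.51 (SE 0.09, adjusted p = 0.00096) with the block term. Col6a5 and Col6a6, alternative chains, were at -0.85 (SE 0.28, adjusted p = 0.038) and -0.51 (SE 0.12, adjusted p = 0.0053).

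The basement membrane genes of type IV split by chain. Col4a1 and Col4a2, the chains of nearly all basement membranes, were at 1348, 1675, 1747 and 1058 and at 803, 979.7, 1033 and 568 CPM in the P0 WT libraries. On P3 they were at 786, 1109, 1281, 1186 and 659 and at 448, 699.8, 810.5, 727 and 358 CPM. Block B libraries were again the lowest of each day. With the block term both fell, at -0.43 (SE 0.11, adjusted p = 0.0074) and -0.36 (SE 0.11, adjusted p = 0.025), and without it neither passed (-0.55, SE 0.28, adjusted p = 0.2 and -0.50, SE 0.34, adjusted p = 0.36). Col4a5 and Col4a6, the pair of chains of smooth muscle and skin basement membranes, did not pass in either fit, at -0.05 and 0.00 without the block term. Col4a3 and Col4a4 stayed at or below 2.69 CPM in every library and did not pass. Col4a1 and Col4a2 share 22 exon bases on opposite strands, and 5.65% of the exon bases of Col4a3 overlap an antisense transcript, while the sources used here do not say whether the counting used strand. The short-chain genes Col8a1 and Col8a2 of vessel and corneal sheets did not pass either (-0.29 and 0.19).

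Partners of these sheets were measured as a list of 14 laminin, nidogen, perlecan and agrin genes. Without the block term 5 fell, 0 rose and 13 of 14 lay below 0, with a median of -0.39. With the block term 10 fell. Over all genes 8.07% were lower and 8.49% higher without the block term, and 13.2% were lower with it. The epidermal laminin chain gene Lamb3 was at -0.74 (SE 0.17, adjusted p = 0.01) and the embryonic chain gene Lama1 at -1.59 (SE 0.37, adjusted p = 0.012). Markers of basal keratinocytes, 2 of which (Lama3 and Lamb3) are also in that list, moved alongside. All 8 were below 0, 5 fell, and their summed level was 5282 to 9169 CPM on P0 and 4443 to 6798 CPM on P3. Endothelial markers summed to 522 to 584 CPM and 389 to 499 CPM, with 5 of 6 below 0 and 1 that fell. Of the other marker lists, 4 of 5 macrophage, 2 of 9 osteoblast, 2 of 6 tendon and 1 of 5 mural markers rose. Of 8 fibroblast markers 1 rose and 2 fell, of 6 suprabasal markers 1 rose and 1 fell, and of 7 osteoclast markers 1 fell. What part keratinocytes or vessels had in the falls of Col7a1, Col17a1 and the type IV genes was not tested.

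Of the 9 FACIT genes 1 fell without the block term (Col19a1) and 3 with it. Col12a1, which bridges fibrils in tendon and fascia, was at 1333, 1606, 1477 and 977 CPM on P0 and at 698, 1264, 1179.6, 985 and 601 CPM on P3 in WT paws. Col14a1, which limits fibril growth, was at 800.4, 867, 927 and 763 and at 462, 761, 807, 646 and 593 CPM. Both overlapped between days. They passed with the block term, at -0.43 (SE 0.10, adjusted p = 0.0058) and -0.30 (SE 0.10, adjusted p = 0.04), and not without it (-0.54, SE 0.28, adjusted p = 0.21 and -0.36, SE 0.18, adjusted p = 0.18). Col22a1, the collagen of the myotendinous junction, had a positive value that passed in neither fit, 0.67 (SE 0.41, adjusted p = 0.3) and with the block term 0.82 (SE 0.28, adjusted p = 0.058). Col16a1 and Col20a1 did not pass in either.

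The 4 transmembrane collagens included 0 that passed without the block term, while 2 fell and 1 rose with it. Without it 2 of the 4 had an unadjusted p under 0.05, beside 30.7% of all genes. Col17a1, the hemidesmosome collagen of basal keratinocytes, was at 565, 577, 668 and 312 CPM on P0 and at 273, 371, 444, 417 and 262 CPM on P3 in WT paws. Within each block the days did not overlap. Its log2 fold change with the block term was -0.49 (SE 0.10, adjusted p = 0.0024), and without it -0.60 (SE 0.21, adjusted p = 0.068). Col25a1, which motor axons need to enter muscle in mice, fell with the block term at -0.37 (SE 0.13, adjusted p = 0.046). Col13a1, a collagen of cell contacts and the neuromuscular junction, rose with it at 0.81 (SE 0.22, adjusted p = 0.019). Col13a1 was at 19.1, 22.5, 23.5 and 16.4 CPM on P0 and at 30.7, 35.2, 33.3, 44.3 and 19.1 CPM on P3, with 4 of 5 P3 libraries above all P0 libraries. Col23a1, at 33.2, 41.6, 45.6 and 37.7 and at 24.7, 31.4, 40.9, 36.2 and 23.2 CPM, passed in neither fit.

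Of the multiplexins, basement membrane collagens that carry sugar chains, Col18a1 was at 345, 372, 413 and 211 CPM on P0 and at 150.2, 227, 282, 276 and 154 CPM on P3 in WT paws. It fell with the block term at -0.49 (SE 0.09, adjusted p = 0.001), and not without it (-0.63, SE 0.30, adjusted p = 0.17). Col15a1 was at 240.1, 255, 280.3 and 148 and at 165, 325, 300.1, 259 and 129.8 CPM, overlapped widely, and passed in neither fit (-0.01, SE 0.42, adjusted p = 0.99). Over the 14 fits with the block term that leave out 1 library each, the number of collagens called for day in WT paws was 13 to 21. The share of all genes called was 17.1% to 32%. A set of 13 collagens was called in every one of these fits, and the share of all genes called in every fit was not counted. The 13 collagens were Col4a1, Col6a1, Col6a2, Col6a3, Col6a6, Col7a1, Col12a1, Col17a1, Col18a1, Col19a1, Col26a1, Col27a1 and Col28a1.

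**Figure D3:**
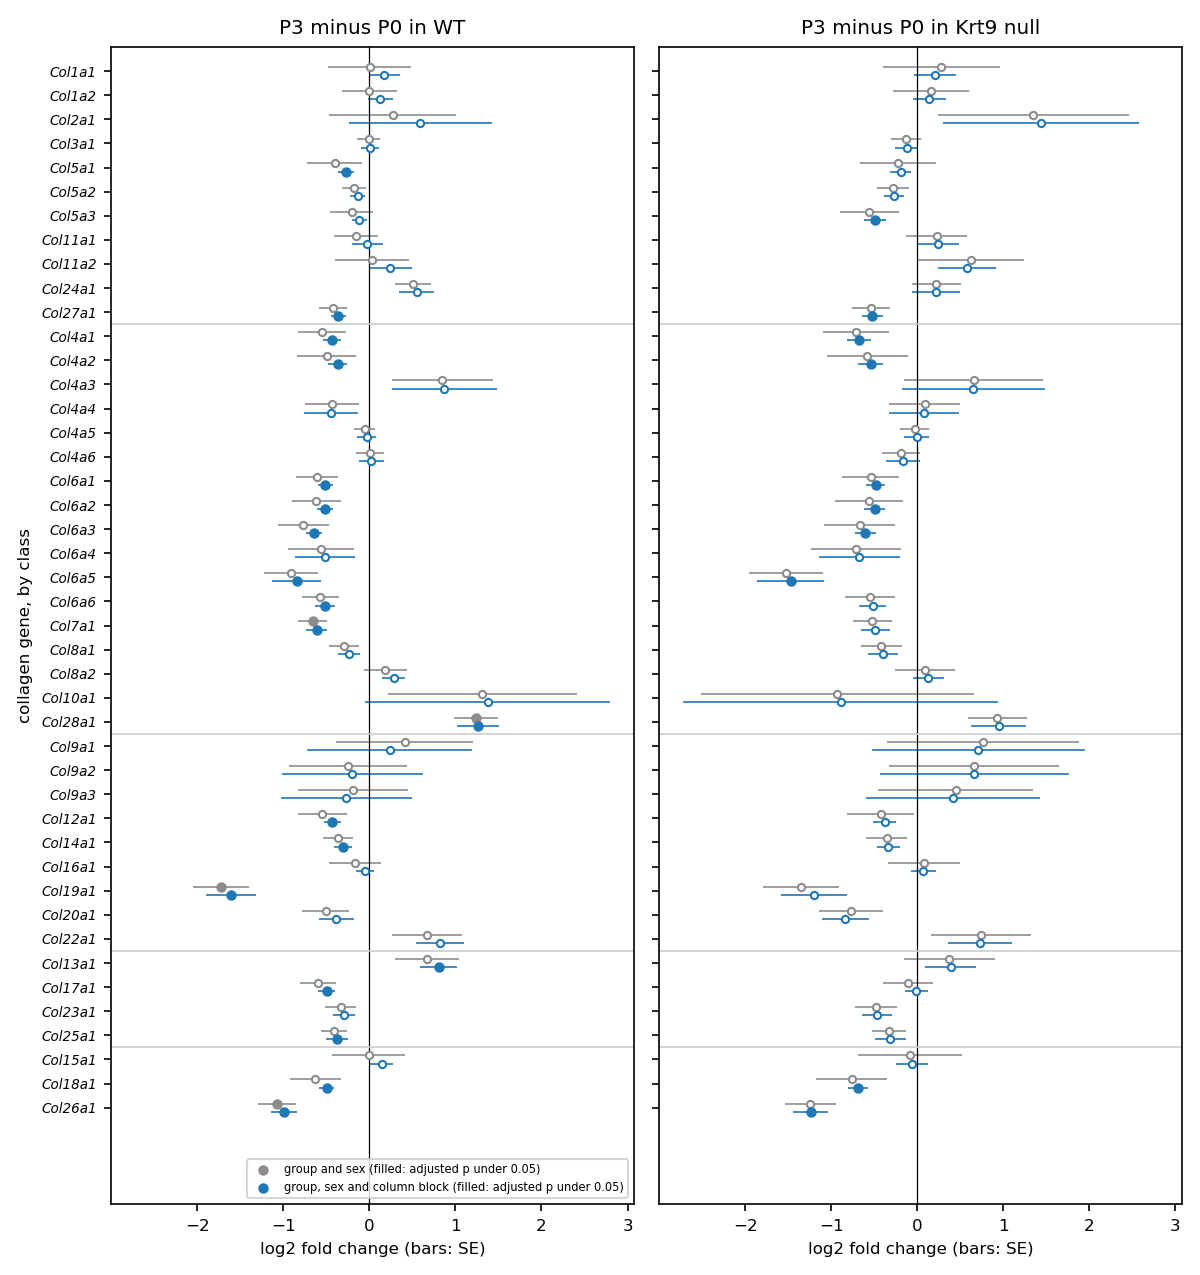
Log2 fold change P3 minus P0 (x axis, bars SE) of each collagen by class, in WT (left) and Krt9 null paws (right), from the fit of group and sex (grey) and the fit with the column block added (blue), filled where the adjusted p is under 0.05. In WT paws 4 points are filled in grey and 19 in blue, and in Krt9 null paws 0 and 10.

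In Krt9 null paws the day comparison rests on 2 P0 and 3 P3 libraries, none shared with WT. All 14 libraries were in 1 fit, which shares its sex and block terms and its estimate of spread. The day effects of the genotypes are thus not fully independent. In the edgeR fit without the block term 0 collagens passed, where 0.768% of all genes were called (0.338% higher and 0.43% lower), and 6 (13.6%) had an unadjusted p under 0.05, as did 15.9% of all genes. DESeq2 called 2 (Col26a1 and Col6a5, beside 5.58% of all genes) and limma voom 0. With the block term 10 were called, all lower, where 4.95% of all genes were called, 2.08% higher and 2.87% lower. Of these 10 collagens 9 were also among the 19 of WT paws, so 9 of 10 of the shorter list and 9 of 19 of the longer. The same sign in both genotypes was seen in 35 of 44 collagens with the block term and in 37 of 44 without it. The overlap and the shared signs of all genes were not counted, so these counts cannot be read as particular to collagens. The 10 called collagens were 4 genes of type VI (Col6a1, Col6a2, Col6a3 and Col6a5), Col4a1, Col4a2, Col5a3, Col18a1, Col26a1 and Col27a1. No collagen passed the test of the difference between the genotypes' day effects (interaction) in either fit, where 0% of all genes were called without the block term and 0.0324% with it. An unadjusted p under 0.05 for the interaction was found for 0 collagens without and 2 with the block term, beside 7.6% and 12.7% of all genes, and DESeq2 and limma voom called 0.

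Col26a1 was at 33.0 and 43.7 CPM in the P0 and at 12.2, 22.1 and 15.4 CPM in the P3 Krt9 null libraries. The days did not overlap. The log2 fold change was -1.24 (SE 0.30, adjusted p = 0.072) without and -1.24 (SE 0.20, adjusted p = 0.0063) with the block term. Col6a5 went from 2.32 and 2.17 CPM to 0.920, 0.997 and 0.421 CPM, and its value with the block term was -1.47 (SE 0.39, adjusted p = 0.042). Col6a3 was at 2660.1 and 1244 and at 895, 1690.0 and 817 CPM, and Col18a1 at 389 and 199.9 and at 117, 246 and 136 CPM. Their values with the block term were -0.60 (SE 0.12, adjusted p = 0.013) and -0.69 (SE 0.12, adjusted p = 0.0065). Col28a1 and Col19a1, called in WT paws, did not pass here, at 0.95 (SE 0.32, adjusted p = 0.1) and -1.20 (SE 0.39, adjusted p = 0.083) with the block term. Col22a1, at 135 and 59.1 and at 102, 284 and 68.9 CPM, did not pass either (0.74, SE 0.58, adjusted p = 0.59). The count of 10 depended on single libraries. It was 0 without P0 Krt9 null 2 and 5 without P0 Krt9 null 1, where 0% and 5.23% of all genes were called and 1 P0 library was left, assumed to vary like the other groups. It was 1 without P3 Krt9 null 1 and 4 without P3 Krt9 null 3, where 0.339% and 2.68% of all genes were called. Leaving out a WT library moved it as well, to 7 without P0 WT 3 or P3 WT 4, where 4.01% and 3.44% of all genes were called.

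The second comparison asked whether collagen genes differ between Krt9 null and WT paws. In the edgeR fit 0 of 44 passed on P0 and 0 of 44 on P3, where 0.00463% of all genes, which is 1 gene, were called on each day. An unadjusted p under 0.05 was found for 2 collagens on P0 and 3 on P3 (4.55% and 6.82%), near the 5.96% and 6.67% of all genes, and DESeq2 and limma voom called 0 on each day. Without P3 Krt9 null 2 the edgeR fit called 2 collagens on P3, both lower, and 0.921% of all genes. That library is the only one of block A in its group. The remaining null libraries, of block B, were thus set against WT libraries of both blocks. With the block term and without that library 1 collagen was called on P3, lower, and 0.217% of all genes. With the block term and all libraries the counts were also 0, where 0.00463% of all genes were called on P0 and 0.0324% on P3. In that fit 7 and 11 collagens (15.9% and 25%) had an unadjusted p under 0.05, as did 8.71% and 8.78% of all genes. Without P0 WT 4 that fit called 1 collagen on P0, Col4a6, at 0.61 (adjusted p = 0.042), and 2 for the interaction, one of them Col17a1 at 0.55 (adjusted p = 0.044). In the same fit 5.89% and 7.02% of all genes were called, above the collagens' 2.27% and 4.55%, so these calls say nothing particular to collagens. The collagens' median log2 fold change, Krt9 null minus WT, was -0.24 on P0 and -0.25 on P3 beside -0.0039 and -0.01 over all genes, and -0.10 and -0.17 with the block term. On P3 the values within block A, 1 null against 3 WT libraries, had a median of -0.01 with 23 of 44 below 0. Within block B, 2 against 2, the median was -0.28 with 35 of 44 below 0.

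The smallest unadjusted p on both days was that of Col25a1. It was at 10.8, 16.96, 13.6 and 14.3 CPM in P0 WT and at 8.84 and 9.73 CPM in P0 Krt9 null libraries, without overlap. On P3 it was at 9.82, 9.38, 10.1, 12.2 and 9.64 CPM in WT and at 6.30, 9.73 and 6.99 CPM in Krt9 null libraries, with null library 2 inside the WT range. The log2 difference was -0.58 (SE 0.19, adjusted p = 0.83) on P0 and -0.49 (SE 0.17, adjusted p = 0.69) on P3. Others with the smallest unadjusted p in their direction were Col11a1 (-0.79, SE 0.34, adjusted p = 0.83), Col4a6 (0.37, SE 0.21, adjusted p = 0.84) and Col28a1 (0.41, SE 0.31, adjusted p = 0.86) on P0. On P3 they were Col6a5 (-0.94, SE 0.37, adjusted p = 0.71), Col7a1 (0.25, SE 0.19, adjusted p = 0.9) and Col4a4 (0.39, SE 0.34, adjusted p = 0.93). For the interaction they were Col17a1 (0.49, SE 0.36, adjusted p = 0.8), Col4a4 (0.52, SE 0.52, adjusted p = 0.88), Col10a1 (-2.24, SE 1.89, adjusted p = 0.84) and Col6a5 (-0.62, SE 0.54, adjusted p = 0.84). Col17a1 was at 588 and 327 CPM on P0 and at 412, 440.4 and 342 CPM on P3 in null paws. Its difference on P3 with the block term was 0.41 (SE 0.11, adjusted p = 0.37), with 0.11 within block A and 0.49 within block B.

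Of the 11 fibrillar genes 10 lay below 0 on P3 (median -0.34) and 9 on P0 (median -0.45), none past the test. In P3 Krt9 null libraries Col1a1 was at 9926, 30029 and 6908 CPM and Col1a2 at 10269, 21822 and 7548 CPM, with library 2, of block A, inside the WT range and the other two below the lowest WT library. Col1a1 was at 19533 and 8950.1 CPM in P0 Krt9 null libraries. Its log2 difference was -0.84 (SE 0.64, adjusted p = 0.86) on P0 and -0.57 (SE 0.56, adjusted p = 0.95) on P3. Within block A, the P3 difference of Col1a1 was -0.12 and within block B -0.74. Markers of bone lay on the same side. All 9 osteoblast markers and all 7 osteoclast markers lay below 0 on both days, and none passed. On P3, 3 osteoblast and 5 osteoclast markers had an unadjusted p under 0.05, beside 6.67% of all genes. With the block term 2 and 6 did, beside 8.78% of all genes. The summed osteoblast level was 639 to 932 CPM in P0 WT and 337 to 610.5 CPM in P0 Krt9 null libraries. On P3 it was 849 to 1472 CPM in WT and 401 to 1029.9 CPM in Krt9 null libraries. Null library 2, of block A, held 1029.9 CPM, and null libraries 1 and 3, of block B, held 524 and 401 CPM. WT libraries 1 and 5, also of block B, held 1472 and 888 CPM. The summed osteoclast level was 899 to 1349 CPM in P3 WT and 626, 954 and 456 CPM in P3 Krt9 null libraries. The summed fibroblast markers overlapped between the genotypes on both days (966 to 1282 CPM and 987 to 1242 CPM on P3). Other lists lay to one side as well, with none past the test. All 8 skeletal muscle markers lay below 0 on both days, and all 6 endothelial, 6 tendon and 5 mural markers did on P3. All 6 suprabasal keratinocyte markers lay above 0 on P3 (median 0.93, 6 at an unadjusted p under 0.05), with a summed level of 15384 to 25587 CPM in WT and 19272 to 45997 CPM in Krt9 null libraries. On P0, 5 of these 6 lay below 0 (median -0.73). The part of any of these cell types in the fibrillar values was not tested.

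The cartilage collagens varied widely between libraries of the same WT group. The ratio of the highest to the lowest library had a median of 12.3 over the 8 cartilage genes in P0 WT and 9.51 in P3 WT. Over the other 36 collagens it was 1.65 and 2.03. In P0 Krt9 null it was 3.15 for the cartilage genes and 1.65 for the others, and in P3 Krt9 null 1.93 and 1.95, so the 3 libraries of that group did not show the wider spread. Col2a1, the main cartilage fibril gene, was at 1738, 504, 516 and 136 CPM in P0 WT and at 889, 2340.3, 269, 211 and 718 CPM in P3 WT libraries. In Krt9 null paws it was at 1026 and 101 CPM on P0 and at 760.1, 890.1 and 576 CPM on P3. Library 1 of P0 WT and library 2 of P3 WT were the highest, and P0 WT 4 and P0 Krt9 null 2 the lowest. Col10a1, the collagen of hypertrophic cartilage, was at 168, 45.4, 19.8 and 9.26 CPM in P0 WT and at 285, 203, 15.4, 22.5 and 173 CPM in P3 WT libraries. In P0 Krt9 null libraries it was at 392 and 5.996 CPM, the widest ratio (65.3) of any collagen in a group. Neither gene passed for day in WT paws (0.27, SE 0.73, adjusted p = 0.85 and 1.31, SE 1.10, adjusted p = 0.47).

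The 8 genes did not vary to the same degree. Col9a1, whose collagen coats cartilage fibrils, ranged from 9.90 to 123 CPM within P3 WT. In the same 5 libraries Col11a1, a core chain of cartilage fibrils, was at 722, 1063, 612, 597 and 507 CPM and Col27a1 at 72.2, 101, 111, 91.1 and 76.7 CPM. The libraries with the most Col2a1 in P3 WT (2, 1 and 5) were also those with the most Col9a1, Col9a2, Col9a3 and Col10a1. Matn1, a cartilage matrilin, was at 15.5, 17.6, 0.0634, 0.631 and 10.7 CPM in these libraries and was highest in the same 3. Acan, the cartilage proteoglycan aggrecan, was at 131, 289, 152, 120.3 and 74.8 CPM and did not follow that order. The day difference of the cartilage genes had opposite medians within the blocks. It was -0.48 in block A, with 7 of 8 below 0, and 2.17 in block B, with 1 of 8 below 0. Block B holds 1 P0 WT library, the one with the least Col2a1 of its group. The 9 chondrocyte markers were all detected and summed to 164 to 666 CPM in P0 WT and 219 to 564 CPM in P3 WT libraries. None was at 0, and the part of cartilage amount in these values was not tested. Col9a3 shares 6.07% of its exon bases with Tcfl5 on the opposite strand.

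**Figure D4:**
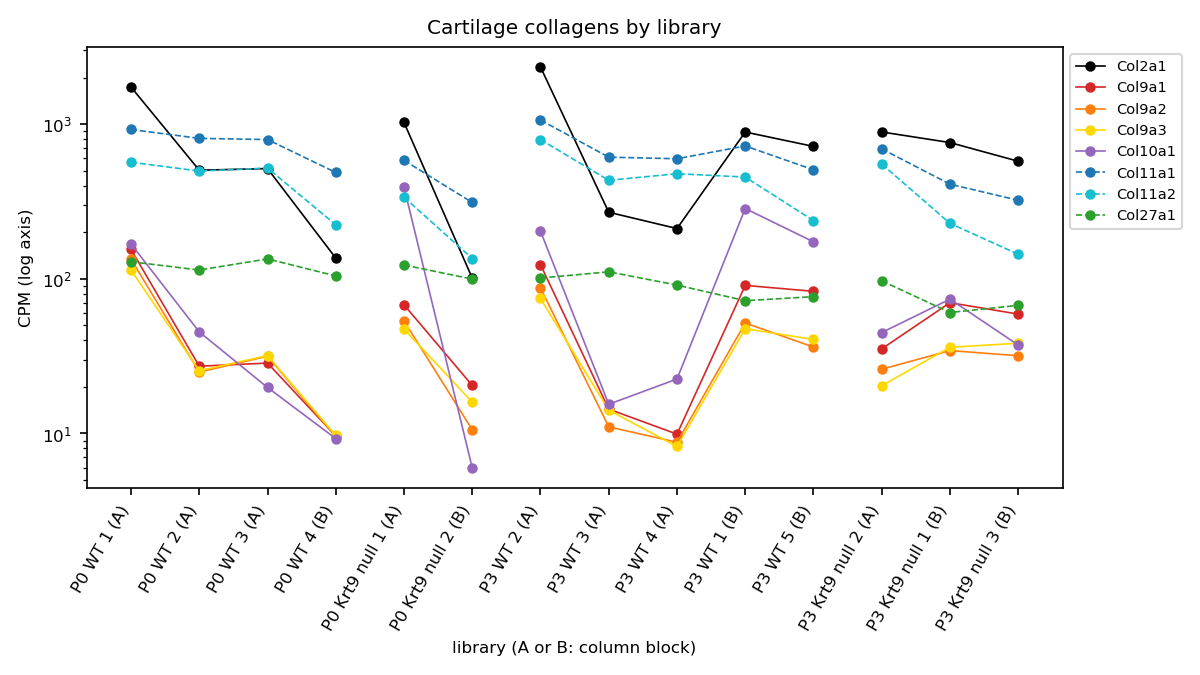
CPM (log axis) of the 8 cartilage collagens in every library, by group and column block. Col2a1, Col10a1 and the type IX genes (solid) rise and fall together within P0 WT and P3 WT, and Col11a1, Col11a2 and Col27a1 (dashed) vary less.

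Genes that modify, cross-link, bind and break down collagen were counted in the same fit for day in WT paws. With the receptor, regulator and basement membrane lists, 17 of 95 genes passed without the block term, near the 16.6% of all genes called. With the block term 34 passed, where 25.8% of all genes were called. Of 23 genes for chain modification and folding 1 rose and 4 fell (median -0.06). The prolyl isomerase gene Fkbp14 rose (0.97, SE 0.16, adjusted p = 0.0016), while the lysyl hydroxylase gene Plod2 (-0.59, SE 0.14, adjusted p = 0.011) and the prolyl 3-hydroxylase gene P3h2 (-1.02, SE 0.24, adjusted p = 0.012) fell. Of 12 genes for processing and cross-linking 1 fell, the cross-linking enzyme gene Lox (-0.70, SE 0.11, adjusted p = 0.0015). Of 15 fibril-associated proteoglycan and adaptor genes 0 passed in this fit, and with the block term 2 rose and 1 fell. Without that term 1 of the 15 had an unadjusted p under 0.05, beside 30.7% of all genes. Of 10 breakdown genes the collagenase gene Mmp8 rose (1.29, SE 0.36, adjusted p = 0.028) and the inhibitor gene Timp3 fell (-0.68, SE 0.21, adjusted p = 0.043).

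Of 10 collagen receptor genes 1 fell, the adhesion receptor gene Adgrg6 (-0.68, SE 0.12, adjusted p = 0.003), which is needed for myelination by Schwann cells in mice. Of 11 regulators of collagen genes 1 rose and 2 fell. The connective tissue growth factor gene Ccn2 (-2.01, SE 0.34, adjusted p = 0.0034) and Tgfb2 (-0.51, SE 0.16, adjusted p = 0.047) fell, and the tendon transcription factor gene Scx rose (0.48, SE 0.14, adjusted p = 0.032). For day in Krt9 null paws and for genotype on either day, 0 of the 95 genes in these 6 lists and the basement membrane list passed edgeR's test without the block term. At an unadjusted p under 0.05 there were 14 for day in Krt9 null paws, 3 for genotype on P0 and 7 for genotype on P3. The shares of all genes were 15.9%, 5.96% and 6.67%. With the block term the counts were 28, 8 and 27, beside 22%, 8.71% and 8.78% of all genes. In that fit 12 passed for day in Krt9 null paws, where 4.95% of all genes were called, and 0 for genotype on either day. On P3, without the block term, all 12 processing and cross-linking genes and all 10 breakdown genes lay below 0 in Krt9 null against WT paws. Of 23 modification and folding genes 22 did. The medians were -0.23, -0.30 and -0.22, and none passed the test. P3 Krt9 null library 2, of block A, lay inside the P3 WT range of each list's summed level. Libraries 1 and 3, of block B, lay below it, and so below P3 WT 1 and 5, also of block B. For modification and folding, null 1 and 3 held 3183 and 3302 CPM and WT 1 and 5 held 3786 and 3865 CPM. For processing and cross-linking they held 1592 and 1525 against 1992 and 1735 CPM, and for breakdown 2268 and 1728 against 3674 and 2683 CPM. Of the 95 genes 67 were called between the column blocks, beside 23.2% of all genes. The part of the block in these values was not tested.

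Ratios between the chains of a molecule were compared as log2 ratios of CPM within a library, for 12 pairs. None of the 12 passed exact two-sided permutation tests for day in WT paws with adjustment over the 12. The smallest p that 4 against 5 libraries allow is 0.0159, which alone adjusts to 0.19, so 1 pair could not have passed by itself. Col8a1 to Col8a2 reached that p. Its log2 ratio was -0.49, -0.35, -0.16 and -0.12 in P0 WT and -0.57, -0.83, -1.03, -0.83 and -0.55 in P3 WT libraries, without overlap. For genotype on P3 the smallest adjusted p over the 12 exact permutation tests was 0.86. There 5 against 3 libraries allow an unadjusted p of 0.0357 at best, so again 1 pair could not have passed by itself. On P0, 4 against 2 libraries cannot go below 0.133, and no test was made. Between the column blocks 8 of 12 ratios differed in exact permutation tests (smallest adjusted p = 0.002, 8 against 6 libraries). Col1a1 to Col1a2 had a log2 ratio of 0.40 ± 0.05 (SD, n = 8) over block A, against -0.05 ± 0.08 (SD, n = 6) over block B. Col5a1 to Col5a2 was 0.24 ± 0.07 and -0.44 ± 0.11. Both pairs separated the blocks without overlap. Col4a5 to Col4a6 (adjusted p = 0.79) and Col2a1 to Col1a2 (adjusted p = 0.84) did not pass the exact test between blocks.

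**Figure D5:**
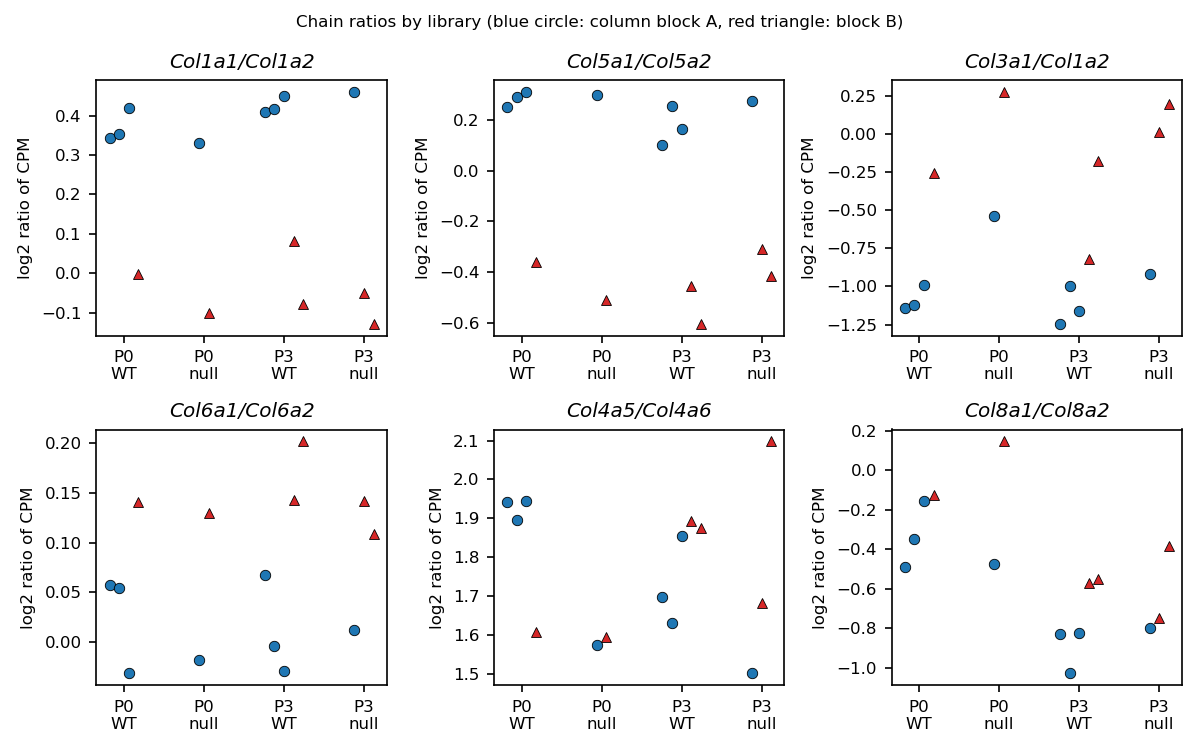
Log2 ratio of CPM (y axis) of 6 chain pairs in every library by group, with blue circles for column block A and red triangles for block B. Col1a1 to Col1a2 and Col5a1 to Col5a2 split by block in every group, and Col8a1 to Col8a2 is lower on P3 than on P0 in WT paws.

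The size of the block difference was set beside the genes' base composition. Across the 44 collagens the log2 difference B minus A and the GC content of the transcript had a Pearson r of -0.39 and a Spearman rho of -0.41, a description over genes that share the same libraries. The 11 collagens with the lowest GC content (45.9% to 50.5%) had a median of -0.37 (log2). The next 11 and the 11 after them had -0.27 and -0.86, and the 11 with the highest (59.2% to 62.9%) had -0.72, so the medians did not follow GC content step by step. Exon length gave a Pearson r of -0.12.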

How the data were processed

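The deposited file holds raw counts per gene for 14 libraries of whole-paw RNA (TRIzol extraction, ribosomal RNA removal), per the labels' protocols. Per the submitters' processing notes, limma, edgeR, featureCounts, STAR 2.7.10a and build GRCm39 were used, with no roles given. The sources used here state neither filters nor whether counting used strand. Of 56691 IDs 4618 had no symbol (0.623% of counts). Here counts were fitted with edgeR 4.0.16 (robust quasi-likelihood, TMM factors 0.898 to 1.08, filterByExpr, 21619 genes, 4 groups and sex, 9 residual degrees of freedom), with Benjamini-Hochberg adjustment over all genes and a threshold of 0.05. The column block as a term, DESeq2 1.42.0 and limma 3.58.1 voom were alternatives. The fit was run on simulated counts, where it recovered 80% of genes changed by 1 (log2) and 100% of those changed by 2 for day in WT paws. Those counts held no block, litter or sex effect, and their spread came from a fit with the block term. They do not cover the spread that the fit without that term meets here. SEs cover the spread between libraries. Litter labels tie some libraries together. Libraries of 1 litter and day had an estimated correlation of 0.55. That estimate rests on P0 WT 1 with P0 Krt9 null 1, and on P3 WT 2 with P3 WT 3, all of block A. Its fit had no block term, so shared litter and shared block cannot be told apart in it. The edgeR fit treated these libraries as independent. A limma voom fit with litter as a block called 4 collagens for day in WT paws, where voom without litter called 5. Both called 0 for the other comparisons. GENCODE and RefSeq tables of build GRCm38 gave names, lengths, GC content and promoters only. The collagens, gene lists and tests were chosen with earlier results of these data known. Values per library are given for up to 2 abundant genes of each class, the called collagens, or else the 2 with the smallest p per direction. The choice of Col3a1, Col10a1, Col9a1, Col13a1 and of collagens that passed only when the block was a term was made after seeing values. Results for some withheld genes are not reported here.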

Additional observations from a re-analysis of the deposited data

Results flagged for a closer look

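In groups of 4 or 5 libraries, 72 values were examined for a library whose gap to the nearest other exceeds Dixon's 95% critical value, which chance passes in about 1 group in 20. A total of 5 passed. Col22a1, the myotendinous junction collagen, was at 133 CPM in P3 WT library 5, below the other four (238 to 296 CPM). Col25a1 was at 12.2 CPM in P3 WT library 4, above the others (9.38 to 10.1 CPM). Col6a5 was at 0.743 CPM in P3 WT library 1, below the others (1.54 to 1.89 CPM). The log2 ratio of Col4a5 to Col4a6 was 1.61 in P0 WT library 4, where the others lay between 1.90 and 1.95. In the same library the log2 ratio of Col5a1 to Col5a2 was -0.36, where the others lay between 0.25 and 0.31. Col22a1 in P3 WT 5 and both ratios in P0 WT 4 are values of block B libraries.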

How the results depend on the processing

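The share of all genes called in the same fit is given in brackets after each count. For day in WT paws 4 collagens were called (16.6%). The count was 19 with no filter on low counts (11.4%), 8 with DESeq2 (21.7%), 19 with the column block as a term (25.8%), 8 with a GC offset per library (19.4%), 9 with only the groups compared (20.5%), 14 with the block within each day (27.9%), 17 in block A alone (29.6%), 9 in block B alone (2.16%) and 15 with the block term and without P0 WT 4 (32%). Leaving out 1 library at a time gave 3 to 11, the 11 without P3 Krt9 null 2 (20%). For day in Krt9 null paws the 0 (0.768%) became 1 with library totals only (1.01%), 12 with no filter (4.6%), 2 with DESeq2 (5.58%), 10 with the block term (4.95%), 1 with the GC offset (1.41%), 1 with the block within each day (0.453%), 1 in block A alone (0.0599%), 14 in block B alone (7.51%) and 11 with the block term and without P0 WT 4 (8.5%). The fits of single blocks compare 1 P0 null library with 1 (block A) or 2 (block B) P3 null libraries, and block B holds 1 P0 WT library. A lone library is there assumed to vary like the other groups. Leaving out 1 library gave 0 to 3, with 3 without P3 Krt9 null 2 (2.97%) and 1 without P3 WT 3 (0.942%). With no filter the genotype counts were 4 on P0 (0.494%) and 3 on P3 (1.71%) and the interaction 3 (1.68%). With the block term and without P0 WT 4 they were 1 on P0 (5.89%) and 2 for the interaction (7.02%). Leaving out 1 library gave 0 to 2 for genotype on P3, the 2 without P3 Krt9 null 2 (0.921%). Without that library, P3 Krt9 null held only libraries of block B in every comparison here. Litter as a replicate block in limma voom gave 4 for day in WT, with litter within a day (13.9%) or litter number across days (15%). Limma voom without litter gave 5 (16%). All these voom fits gave 0 for the other comparisons. Block alternatives other than the additive term, and P0 WT 4 left out, were chosen after seeing the data. The cause of these differences was not tested.

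The sign turned for Col10a1, interaction of day and genotype, without P0 Krt9 null 1 (range over left-out libraries -3.49 to 1.41), for Col22a1 for day in Krt9 null paws without P3 Krt9 null 2 (range -0.13 to 1.36) and for Col4a6 for genotype on P0 in block B alone (-0.054). Of the other values of named collagens under alternatives, 572 kept direction and side of the threshold, 20 passed it under the alternative alone and 5 lost the call.

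Chain ratios for genotype on P0, leaving out 1 library, ran from -0.074 to 0.22 for Col4a1 to Col4a2, from 0.30 to 0.90 for Col9a1 to Col9a2 and from -0.19 to 0.43 for Col8a1 to Col8a2. In block A alone Col4a5 to Col4a6 was at -0.36 and Col9a1 to Col9a2 at 0.28, and in block B alone at -0.013 and 0.94. For day in WT paws in block B alone, Col4a3 to Col4a4 was at 0.57, Col4a5 to Col4a6 at 0.28, Col6a3 to Col6a1 at -0.060, Col9a1 to Col9a2 at 0.99 and Col2a1 to Col1a2 at 2.48. Depth limits the genes with a mean under 3 CPM, such as Col4a3, Col6a5 and Col19a1.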
